A study of Mus musculus with 18 samples.

Results

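The markers of epithelial-mesenchymal transition (EMT) were examined as a set of 10 genes listed by name, of 47729 genes in the count table. They were 2 cadherins of epithelial cell contacts (*Cdh1*, *Cdh3*), the cadherin of mesenchymal and neural cells (*Cdh2*), 2 genes of the mesenchymal cytoskeleton (*Vim*, *Acta2*) and 5 transcription factors (*Snai1*, *Snai2*, *Twist1*, *Zeb1*, *Zeb2*). The question was whether the retinal pigment epithelium (RPE) of a degenerating eye that overexpresses Nrf2 differs in its epithelial identity from that of the fellow eye. RNA was sequenced from 9 *rd1* mice at P40, 1 library for each eye and 18 in all, as the labels give them. The *rd1* strain (FVB/N) has no functional Pde6b, so that rods die in the first weeks after birth. For each mouse, 1 eye had been injected with both AAV-Best1-Nrf2 and AAV-Best1-GFP (Best1-Nrf2 eyes), and its fellow with AAV-Best1-GFP alone (control eyes). By these labels both groups carried the *rd1* mutation, the injection and the GFP vector. The study also had wild-type CD1 mice of this age, and that every pair used here is *rd1* rests on the labels. Rod markers had sums of 88.2 to 744 CPM in control and 6.26 to 154 CPM in Best1-Nrf2 eyes (CPM, counts relative to library size after TMM scaling). The retina had been removed and no wild-type library was set beside them, so these sums cannot tell *rd1* from CD1. The Nrf2 vector carried the human cDNA under the human Best1 promoter, which is selective for the RPE, and no further vector took its place in control eyes, so the cDNA and the added vector cannot be told apart. By the paper's methods, the retina was taken out, the cleaned eyecup was put in RNA Protect, and RPE RNA was purified from the supernatant. RNA of other cells of the eyecup could still be in it.

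In EMT, cells of an epithelial sheet give up the cadherin junctions that hold them together and take on the filaments, matrix genes and motility of mesenchymal cells. The Snail, Twist and Zeb factors bind E-box sequences and repress junction genes, *Cdh1* foremost, and TGF-beta signalling is a classic inducer. The RPE is an epithelium with features of its own: its junctions hold P-cadherin and N-cadherin, it contains vimentin under ordinary conditions, and dedifferentiated RPE cells are known from proliferative vitreoretinopathy and subretinal fibrosis.

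Library totals ranged from 18956748 to 49598700 counts, and the control library of mouse 8 was the smallest. *Nfe2l2*, the mouse gene of Nrf2, was at 89.7 ± 17.8 CPM in control eyes against 453 ± 147 CPM in Best1-Nrf2 eyes (mean ± SD, n = 9 each). The Best1-Nrf2 eye was the higher in 9 of 9 mice. Whether these counts came from the human cDNA of the vector or from the mouse gene was not tested. The 16 RPE markers summed to 11900 to 64600 CPM in control libraries against 15900 to 68300 CPM in Best1-Nrf2 libraries, with medians of 39110 and 21860 CPM and a mean log2 level higher with Best1-Nrf2 in 1 of 9 mice. The summed RNA of these genes was abundant in each library, and *Ttr* was the largest part of it (means of 12870 and 18050 CPM). Single markers could be low, such as *Best1* (means of 1.46 and 2.80 CPM). Over all genes, 806 of 18958 tested were called (4.25%), with a threshold of 0.05 on the adjusted p (edgeR quasi-likelihood test with mouse as a block, Benjamini-Hochberg over all genes). Of the genes tested, 3.12% were called higher and 1.13% lower in Best1-Nrf2 eyes, and the median log2 fold change was -0.03.

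None of the EMT markers was called. Of the 10, 9 had enough counts for the test and *Snai1* did not. In the edgeR test, 0 of 9 were past the adjusted threshold and 1, *Vim*, had an unadjusted p under 0.05, against 12.8% of all genes tested. DESeq2 and limma voom each called 1 marker, again *Vim*, and they called 6.76% and 7.52% of all genes. The median log2 fold change of the 9 was 0.20. A p that misses the threshold does not show that the level was the same in both eyes, and the 95% intervals of the 9 genes tested state what difference the data allow.

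The levels of the markers were first set in order. Per kilobase of exon, mean levels in control eyes ran from *Acta2* (136 CPM per kb) through *Vim* (29.6), *Cdh1* (15.99), *Cdh3* (13.5), *Snai2* (6.37), *Cdh2* (2.07), *Zeb2* (1.55), *Zeb1* (1.08) and *Twist1* (0.54) to *Snai1* (0.0676). The order of the means was the same in Best1-Nrf2 eyes. In control eyes the step from *Cdh1* to *Cdh3* and that from *Cdh3* to *Snai2* held in only 6 of 9 libraries each, so these neighbours were not parted beyond their spread, whereas *Acta2* was above *Vim* and *Snai2* above *Cdh2* in 9 of 9. In Best1-Nrf2 eyes the step from *Acta2* to *Vim* held in 6 of 9 libraries, that from *Cdh1* to *Cdh3* in 4, that from *Snai2* to *Cdh2* in 4 and that from *Zeb2* to *Zeb1* in 5.

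**Figure D1:**
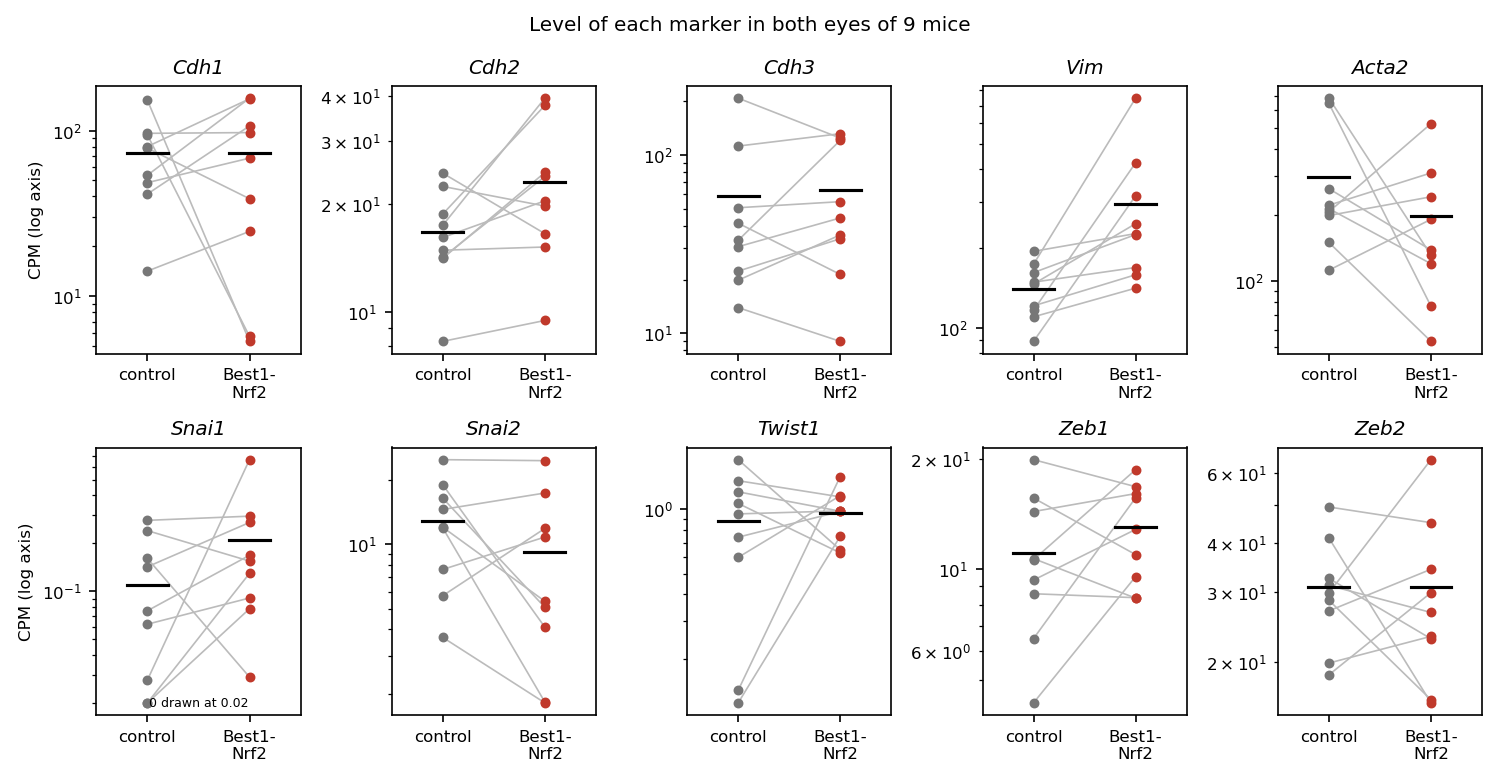
Level of each EMT marker in CPM (log axes, a separate range for each gene) in the control and the Best1-Nrf2 eye of 9 mice. Each point is 1 library, grey lines join the eyes of a mouse, and black bars are group means. *Vim* is higher with Best1-Nrf2 in 9 of 9 mice with overlapping groups, while the lines of the other genes cross. In the *Snai1* panel, libraries at 0 are drawn at the bottom.

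*Cdh1* and *Cdh3* were described first, as the cadherins of epithelial contacts. *Cdh1*, which encodes E-cadherin (ENSMUSG00000000303, GRCm38 chr8:106603351-106670246), was at 14.2, 78.3 and 152 CPM in the lowest, the median and the highest control eye, and at 5.33, 68.1 and 157 CPM in Best1-Nrf2 eyes. The groups overlapped over nearly their whole range, and the means were 73.2 ± 39.9 and 73.1 ± 59.3 CPM (SD, n = 9 each). The log2 fold change was -0.20 (SE 0.69, 95% interval -1.71 to 1.30, adjusted p = 0.959 in edgeR). *Cdh1* was higher with Best1-Nrf2 in 6 of 9 mice, and the negative estimate rested on mouse 4 and mouse 6. Their control eyes were at 152 and 93.9 CPM and their Best1-Nrf2 eyes at 5.33 and 5.71 CPM, log2 differences of -4.82 and -4.03. The estimate turned to 0.21 without mouse 4, to 0.19 without mouse 6 and to 0.61 without both (adjusted p = 0.302). With rod and cone marker levels as a covariate it went further down, to -3.24 (SE 1.2, adjusted p = 0.177 in edgeR).

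*Cdh3*, which encodes the P-cadherin of RPE junctions (ENSMUSG00000061048, GRCm38 chr8:106510891-106557297, next to *Cdh1*), was at 13.9, 33.2 and 208 CPM in the lowest, the median and the highest control eye and at 9.00, 44.3 and 131 CPM in Best1-Nrf2 eyes. The groups overlapped, mouse 1 and mouse 9 were high in both eyes, and mouse 8 was lowest in both. The log2 fold change was 0.20 (SE 0.27, 95% interval -0.39 to 0.80, adjusted p = 0.869 in edgeR), with 6 of 9 mice higher. The interval of *Cdh3* was narrower than that of *Cdh1*, which was wide in both directions.

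*Cdh2*, which encodes N-cadherin (ENSMUSG00000024304, GRCm38 chr18:16588877-16809246), is the cadherin that rises in classic EMT and is also a cadherin of the RPE itself. It was at 8.27, 16.1 and 24.4 CPM in the lowest, the median and the highest control eye and at 9.45, 20.4 and 39.5 CPM in Best1-Nrf2 eyes. The groups overlapped, with 7 of 9 mice higher. The log2 fold change was 0.40 (SE 0.20, 95% interval -0.04 to 0.83, adjusted p = 0.456 in edgeR). Ratios within a library do not depend on how libraries are scaled. Per kilobase, the *Cdh1* to *Cdh2* ratio had a median of 5.79 in control and 3.35 in Best1-Nrf2 libraries and was higher with Best1-Nrf2 in 3 of 9 mice, and the *Cdh3* to *Cdh2* ratio had medians of 3.49 and 4.21 and was higher in 4 of 9. Neither ratio moved one way across the mice.

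*Vim* was the marker with the same direction in every mouse. It encodes vimentin, the intermediate filament of mesenchymal cells, which is also made by Müller glia, macrophages and the RPE (ENSMUSG00000026728, GRCm38 chr2:13573927-13582826). Control eyes were at 88.6, 146 and 195 CPM (lowest, median and highest) and Best1-Nrf2 eyes at 141, 228 and 747 CPM. The Best1-Nrf2 eye was the higher in 9 of 9 mice (of all genes tested, 4.34% had the same direction in every mouse, 3.12% higher and 1.22% lower), yet the groups overlapped, as those of all but 1.17% of genes did, and the within-mouse log2 difference ran from 0.19 in mouse 9 to 2.10 in mouse 3, with mice 3, 4 and 6 at 1.84 or more and the other 6 at 0.76 or less. The means were 140 ± 34.0 and 296 ± 191 CPM (SD, n = 9 each). The log2 fold change was 0.90 (SE 0.25, 95% interval 0.35 to 1.45), a 1.87-fold difference, and its adjusted p of 0.0770 in edgeR missed the threshold of 0.05 (unadjusted p = 0.00377 in the same edgeR fit). It passed in the model without the mouse block (1.08, adjusted p = 0.0400), in DESeq2 (0.91, adjusted p = 0.0113) and in limma voom (0.89, adjusted p = 0.0282). Leaving out each mouse in turn gave 0.78 to 1.02 and no call.

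*Acta2*, which encodes the smooth muscle actin of myofibroblasts, pericytes and the iris and ciliary muscle (ENSMUSG00000035783, GRCm38 chr19:34241090-34255590), had a negative estimate. It was at 112, 214 and 681 CPM in the lowest, the median and the highest control eye and at 53.1, 139 and 521 CPM in Best1-Nrf2 eyes. The groups overlapped and 4 of 9 mice were higher. The log2 fold change was -0.62 (SE 0.45, 95% interval -1.61 to 0.37, adjusted p = 0.681 in edgeR), and leaving out mouse 2 or mouse 6 gave -0.39 or -0.33. The *Acta2* to *Vim* ratio within a library, per kilobase, had a median of 2.96 in control and 1.88 in Best1-Nrf2 libraries and was lower with Best1-Nrf2 in 7 of 9 mice. *Vim* and *Acta2* were both higher in mice 4, 5, 7 and 8. As a further check on *Acta2*, of the 10 smooth muscle and pericyte markers 0 were called higher and 2 lower (median, -0.12). These were the pericyte genes *Kcnj8* and *Cspg4*, while *Rgs5* (log2 fold change 0.29), *Notch3* (0.19) and *Pdgfrb* (-0.11) of the same cells were not called. The sum of the list was 101 to 461 CPM in control eyes against 84.2 to 285 CPM in Best1-Nrf2 libraries. With the level of fibroblast and smooth muscle markers as a covariate, *Acta2* was at -0.83 (SE 0.51, adjusted p = 0.744 in edgeR). In these bulk samples, fewer cells of a type and less RNA per cell cannot be told apart.

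**Figure D2:**
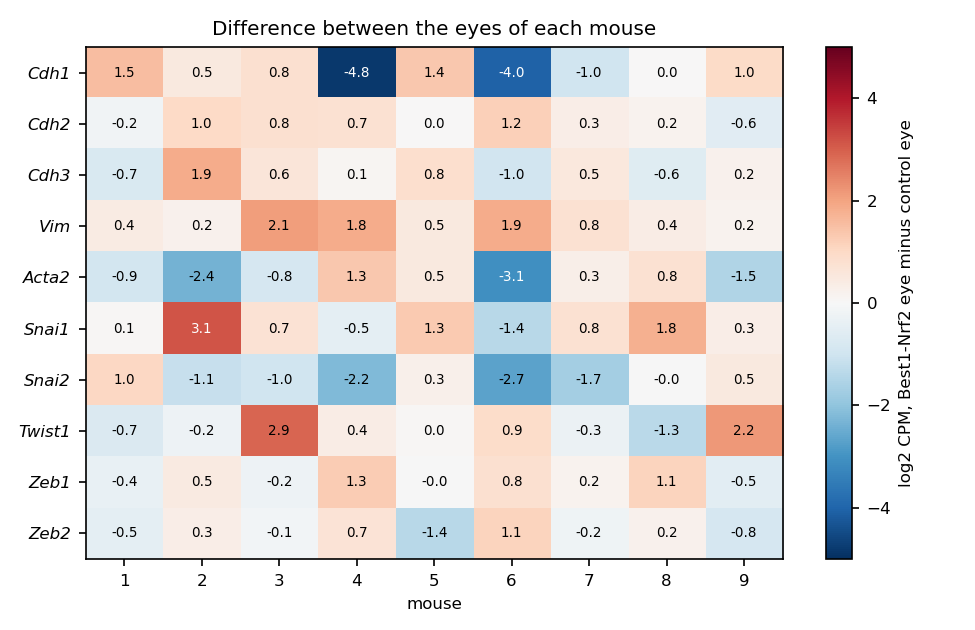
Difference in log2 CPM between the Best1-Nrf2 and the control eye for each EMT marker (rows) in each of 9 mice (columns). Red marks a higher Best1-Nrf2 eye and blue a lower one, and the number in a cell is the difference. *Vim* is red in all 9 columns, *Cdh1* and *Snai2* are most negative in mouse 4 and mouse 6, and no mouse has *Cdh1* and *Cdh3* lower with all of *Cdh2*, *Vim* and *Acta2* higher.

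None of the 4 transcription factors tested was called. *Snai2*, which encodes Slug and is also expressed in the basal cells of stratified epithelia (ENSMUSG00000022676, GRCm38 chr16:14705852-14709385), was the most abundant of them per kilobase. It was at 3.67, 12.02 and 24.9 CPM in the lowest, the median and the highest control eye and at 1.81, 5.42 and 24.6 CPM in Best1-Nrf2 eyes. The groups overlapped and 3 of 9 mice were higher. The log2 fold change was -0.76 (SE 0.40, 95% interval -1.64 to 0.11, adjusted p = 0.482 in edgeR), and the lowest differences were again in mouse 4 (-2.20) and mouse 6 (-2.67).

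*Zeb1* and *Zeb2* encode zinc-finger homeobox repressors, and *Zeb2* is also made by macrophages and Schwann cells. *Zeb1* was at 11.1 ± 4.81 CPM in control eyes against 13.02 ± 3.90 CPM in Best1-Nrf2 eyes (log2 fold change 0.29, SE 0.23, 95% interval -0.20 to 0.79, adjusted p = 0.703 in edgeR; 5 of 9 mice higher), and 0.17 without mouse 4 and 0.19 without mouse 8. *Zeb2* was at 30.9 ± 9.65 and 30.9 ± 15.7 CPM (-0.08, SE 0.24, 95% interval -0.61 to 0.46, adjusted p = 0.955; 4 of 9 mice higher). These are the narrowest intervals of the 4 factors tested. The sign of the *Zeb2* estimate turned without mouse 1, mouse 5 or mouse 9 (0.03, 0.09 and 0.02). The libraries were made without strand marking as far as the labels tell, so *Zeb2* reads cannot be told from those of the antisense gene *Zeb2os*, which shares 653 exonic bases, nor *Zeb1* reads from those of *Gm10125*, which shares 198.

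*Twist1* and *Snai1* lay near the limit of these libraries. *Twist1*, a basic helix-loop-helix factor, had 4 to 49 counts a library, at 0.879 ± 0.534 CPM in control eyes against 0.967 ± 0.261 CPM in Best1-Nrf2 eyes (log2 fold change 0.39, SE 0.49, 95% interval -0.67 to 1.46, adjusted p = 0.854 in edgeR; 5 of 9 mice higher). Its estimate was 0.14 without mouse 3, 0.15 without mouse 9 and 0.63 without mouse 8. *Snai1*, which encodes Snail, had 0 to 28 counts a library and 2 control libraries at 0, at 0.110 ± 0.102 and 0.209 ± 0.193 CPM. It was higher in 7 of 9 mice. A count of 0 in these 2 libraries allows up to 3 counts, or 0.119 to 0.171 CPM, for counting error alone. *Snai1* was too low for the main test, and DESeq2, which kept it, gave a log2 fold change of 0.99 (adjusted p = 0.633), so a difference was not detectable at this depth.

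The sequences before the start sites of these factors were read from RefSeq promoters on GRCm38.p6, which had a window for 5 of the 10 genes (not for *Cdh1*, *Cdh2*, *Cdh3*, *Snai2* and *Zeb1*). The 250 bases before each start were searched on both strands for the E-box CAGGTG, the sequence that Snail and Zeb proteins bind, and for the core of the antioxidant response element TGACNNNGC, the sequence that Nrf2 binds with small Maf proteins. *Vim*, *Acta2* and all windows of *Zeb2* held neither. *Snai1* and *Twist1* are shown because each held a match, the E-box (on the opposite strand) 126 bases before the *Snai1* start and the response element core 85 bases before the *Twist1* start. Matches are in capitals, both windows lie on the plus strand, and they span chr2:167537945-167538194 and chr12:33957421-33957670.
Snai1: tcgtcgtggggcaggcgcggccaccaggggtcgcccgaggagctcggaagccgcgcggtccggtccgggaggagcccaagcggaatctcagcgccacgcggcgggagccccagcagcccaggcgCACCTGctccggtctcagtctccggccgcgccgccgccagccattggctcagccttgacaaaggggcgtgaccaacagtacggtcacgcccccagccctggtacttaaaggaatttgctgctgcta
Twist1: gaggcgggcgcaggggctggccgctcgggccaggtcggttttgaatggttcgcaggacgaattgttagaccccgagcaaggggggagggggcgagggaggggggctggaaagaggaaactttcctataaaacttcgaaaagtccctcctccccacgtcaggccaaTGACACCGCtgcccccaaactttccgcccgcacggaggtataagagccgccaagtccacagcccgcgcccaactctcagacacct
Of 32851 promoter windows of this length, 17.2% held the E-box and 10.2% the response element core, so a match in 1 of 5 genes is a description of these letters and no more.

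The levels of *Cdh1* and *Snai2* ran with markers of an epithelium other than the RPE. Keratins and other markers of the corneal and conjunctival epithelium, the stratified epithelium of the eye's surface, were abundant in many of the libraries, and this epithelium also makes E-cadherin and Slug. A list of 11 of its markers was chosen after these values were seen, so it was given no test of its own. Their sum was 4240, 20400 and 70300 CPM in the lowest, the median and the highest control library and 435, 11800 and 55300 CPM in Best1-Nrf2 libraries. *Krt12*, the keratin of the corneal epithelium, ran from 1.07 CPM in the Best1-Nrf2 eye of mouse 6 to 33800 CPM in the control eye of mouse 8. The groups overlapped, 0 of the 11 markers were called, and their mean log2 level was higher with Best1-Nrf2 in 3 of 9 mice (median log2 fold change, -0.68). The lowest sums, 435 and 938 CPM, were in the Best1-Nrf2 eyes of mouse 6 and mouse 4, the eyes in which *Cdh1* was at 5.71 and 5.33 CPM, and the control eyes of these mice held 31100 and 40700 CPM of the markers.

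Within each group, *Cdh1* and *Snai2* were high where these markers were high, and *Zeb1*, *Zeb2*, *Vim* and *Cdh2* ran against them. For *Cdh1*, Pearson's r with the mean log2 level of the markers was 0.795 over the 9 control libraries (Spearman's rho 0.767) and 0.960 over the 9 Best1-Nrf2 libraries (rho 0.833). For *Snai2* it was 0.933 (rho 0.867) and 0.882 (rho 0.900). Without the 2 libraries farthest from the median, r was 0.636 and 0.906 for *Cdh1* and 0.831 and 0.955 for *Snai2*. The values over all 9 were -0.787 and -0.855 for *Zeb1*, -0.790 and -0.850 for *Zeb2*, -0.613 and -0.763 for *Vim*, and -0.570 and -0.715 for *Cdh2*. Without the 2 farthest libraries they were -0.417 and -0.845, -0.500 and -0.851, -0.458 and -0.893, and -0.785 and -0.626, in the same order. *Twist1* went opposite ways in the groups (0.691 and -0.635, and 0.362 and -0.791 without the 2 farthest libraries), and the groups were not compared by a test. These are descriptions over libraries that share a scale, on which any abundant RNA lowers the CPM of every other gene. Their part in the difference between the eyes was not tested. With the marker level as a covariate, an alternative added after these markers were seen to run with *Cdh1*, and thus a description only, the log2 fold change was 0.38 for *Cdh1* (SE 0.25, adjusted p = 0.471 in edgeR), -0.29 for *Snai2* (SE 0.22, adjusted p = 0.523), 0.67 for *Vim* (adjusted p = 0.0793) and -0.34 for *Zeb2*. None of the EMT markers was called in that fit.

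**Figure D3:**
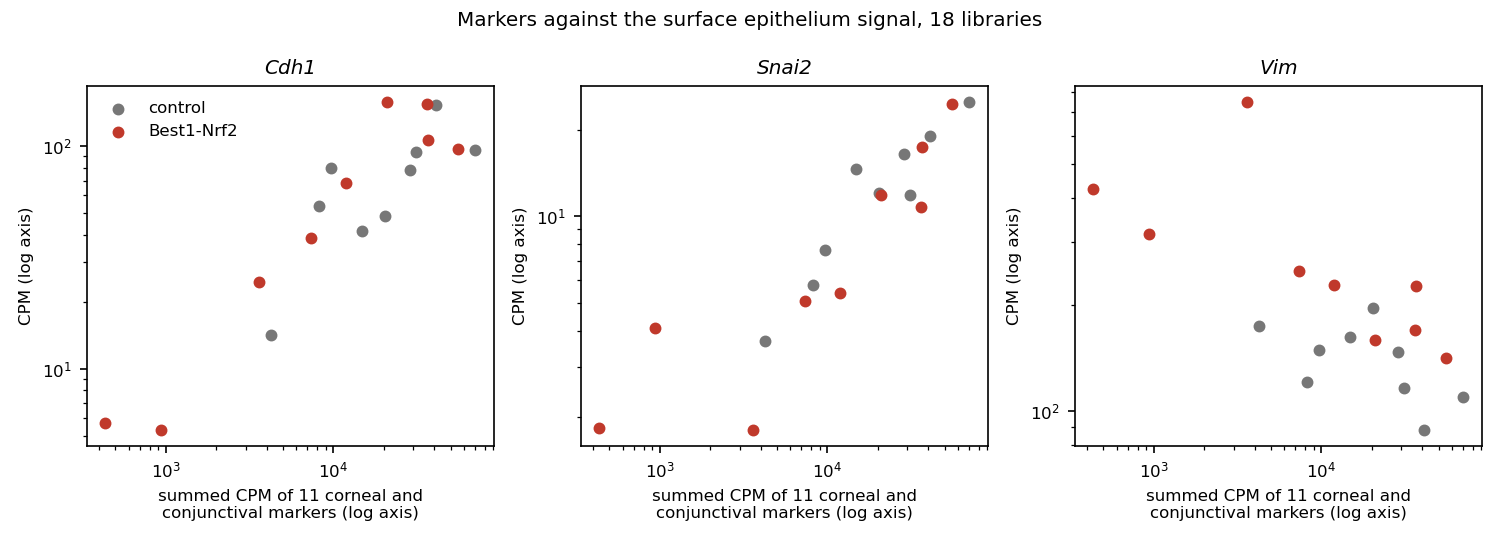
Level of *Cdh1*, *Snai2* and *Vim* in CPM against the summed CPM of 11 corneal and conjunctival epithelium markers (log axes) in 18 libraries. Each point is 1 library, grey for control and red for Best1-Nrf2 eyes. *Cdh1* and *Snai2* go up with the sum in both groups, with the Best1-Nrf2 eyes of mouse 4 and mouse 6 at the lower left of the *Cdh1* panel (5.33 and 5.71 CPM), and *Vim* goes down.

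RNA of the other cells that make vimentin was set beside *Vim*. Of 16 macrophage and microglia markers, 10 were called higher and 0 lower (median log2 fold change, 1.72), and they summed to 176 to 513 CPM in control eyes against 169 to 782 CPM in Best1-Nrf2 libraries. Of 10 Müller glia markers, 0 were called in either direction (median, -0.20), with sums of 1330 to 3880 and 2260 to 4090 CPM. Of 10 fibroblast and sclera markers tested, 1 was called higher, the fibrillar collagen *Col3a1*, and 0 lower (median, 0.62), with sums of 260 to 804 and 530 to 1098 CPM, and their mean log2 level was higher in 9 of 9 mice. Of 11 endothelial markers 0 were called (median, 0.14). The part of these cells in the *Vim* difference was not tested beyond a covariate for the fibroblast and smooth muscle markers, with which *Vim* was at 0.73 (adjusted p = 0.284 in edgeR) and was not called. The markers of other cell types differed in their calls: of 11 cone markers 10 were called lower, of 9 rod markers tested 4 were called lower, and of 9 inner retina and 6 melanocyte and Schwann cell markers tested 0 were called. Within the RPE list of 16, 5 were lower and 0 higher (median, -0.34), namely the visual cycle genes *Rpe65*, *Lrat*, *Rlbp1*, *Rdh5* and *Rgr*. The other 11 were not called, and their log2 fold changes went both ways. They were negative for *Slc16a8* (-0.60), *Pmel* (-0.56), *Stra6* (-0.42), *Otx2* (-0.26), *Mitf* (-0.25) and *Cldn19* (-0.04). They were positive for *Best1* (0.97, adjusted p = 0.0555 in edgeR), *Tyr* (0.78), *Ttr* (0.44), *Ezr* (0.43) and *Tyrp1* (0.08).

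Beyond the 10 genes, 7 lists of related genes held 105 genes, of which 95 were tested, and 4 of these were called higher and 2 lower (4.25% of all genes were called). In edgeR, none of the lists of junction, keratin, transcription factor or further cadherin genes held a call. Of 9 cadherin partners 0 were called (median log2 fold change, 0.13), and these include the catenins that tie cadherins to actin: *Ctnnb1* was at 285 ± 70.9 CPM in control eyes against 339 ± 94.0 CPM in Best1-Nrf2 eyes, *Ctnna1* at 329 ± 96.4 and 365 ± 97.0 CPM, and the nectin *Nectin3* at 58.5 ± 23.8 and 72.8 ± 25.9 CPM. The 14 genes of epithelial keratins, adhesion and their regulators held 0 calls (median, -0.39). Some varied widely within the groups, such as *Epcam* (84.6 ± 47.8 and 77.6 ± 80.8 CPM) and *Rab25* (94.5 ± 81.1 and 74.1 ± 93.2 CPM). The part of surface epithelium RNA in this median was not tested. The simple-epithelium keratin *Krt8* was at 391 ± 94.5 and 311 ± 107 CPM (log2 fold change -0.38, SE 0.20, adjusted p = 0.468 in edgeR; lower in 8 of 9 mice), and its partner *Krt18* was at 790 ± 245 and 611 ± 119 CPM (-0.32, SE 0.21, adjusted p = 0.611; lower in 7 of 9). *Krt19*, found in surface epithelium as well, had a wide range, 209 to 1372 CPM in control eyes against 45.3 to 1661 CPM in Best1-Nrf2 eyes.

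Of the 18 mesenchymal effectors, 2 were called higher and 1 lower (median, 0.20). *Mmp2*, a secreted gelatinase, was at 1.77, 6.22 and 11.01 CPM in the lowest, the median and the highest control eye and at 6.22, 13.9 and 16.2 CPM in Best1-Nrf2 eyes, and it rose in 9 of 9 mice (log2 fold change 1.09, SE 0.23, adjusted p = 0.0157 in edgeR). *Ccn2*, a matricellular protein induced by TGF-beta and YAP, was at 55.0, 121 and 142 CPM in control and at 91.4, 197 and 339 CPM in Best1-Nrf2 eyes, and it rose with 8 of 9 mice higher (0.96, SE 0.21, adjusted p = 0.0187). *Fap*, a cell-surface protease of activated fibroblasts, was at 43.8, 147 and 238 CPM in control and at 52.3, 80.1 and 88.4 CPM in Best1-Nrf2 eyes, and it fell, with 8 of 9 mice lower (-0.81, SE 0.19, adjusted p = 0.0359). The groups overlapped for all 3 genes. These calls were close to the threshold: *Mmp2* was no longer called once mouse 7 (adjusted p = 0.0518) or mouse 9 (0.0511) was left out, *Ccn2* without mouse 4 (0.0564), mouse 5 (0.0519), mouse 7 (0.0633) or mouse 9 (0.0552), and *Fap* without mouse 1, 2, 3, 4, 5, 7 or 9 (0.0558 to 0.119). With the level of fibroblast and smooth muscle markers as a covariate, *Mmp2* (0.87, adjusted p = 0.05 in edgeR) and *Fap* (-0.88, adjusted p = 0.0666) were not called, and without a count filter *Fap* was not (0.0640). In the model without the mouse block *Mmp2* was not called either (adjusted p = 0.106 in edgeR).

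In TGF-beta and BMP signalling, edgeR called 0 of 20 genes higher and 1 lower (median, 0.15). *Bmp4*, a ligand of the BMP branch that adult RPE secretes, was at 47.1, 157 and 360 CPM in the lowest, the median and the highest control eye and at 42.5, 71.8 and 177 CPM in Best1-Nrf2 eyes. It fell in 9 of 9 mice (log2 fold change -1.002, SE 0.21, adjusted p = 0.0154 in edgeR). The call was lost without mouse 1 (adjusted p = 0.0518) or mouse 3 (0.0546), and in the model without the mouse block (0.0903). *Tgif1*, a corepressor of Smad proteins, was at 16.5 ± 3.56 and 23.1 ± 6.90 CPM (0.46, SE 0.16, adjusted p = 0.180 in edgeR; 8 of 9 mice higher). It was called in limma voom (0.53, adjusted p = 0.0285) and with the corneal and conjunctival marker level as a covariate (0.59, adjusted p = 0.0260 in edgeR). The inhibitory *Smad7* was at 8.30 ± 6.45 and 14.1 ± 11.9 CPM (0.53, SE 0.36, adjusted p = 0.640 in edgeR), and its estimate was 0.25 without mouse 2.

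Of the other transcription factors linked with EMT, 11 of 15 had enough counts and 0 were called (median, 0.01). Among those with the smallest p were *Prrx1* (log2 fold change -0.41, SE 0.30, and -0.20 without mouse 5) and *Foxc2* (0.43, SE 0.55, and 0.17 without mouse 9 to 0.70 without mouse 6 or 7). Of 13 further cadherins tested 0 were called in edgeR (median, -0.01), although DESeq2 and limma voom called *Cdh19* and *Cdh18*. *Cdh19*, a cadherin of Schwann and neural crest cells, was at 4.73 ± 2.45 CPM in control eyes against 10.3 ± 4.66 CPM in Best1-Nrf2 eyes with 8 of 9 mice higher (1.13, SE 0.38, adjusted p = 0.160 in edgeR). Its adjusted p was 0.0241 in DESeq2, 0.0130 in voom and 0.0218 in edgeR without mouse 8. *Cdh18*, a neuronal cadherin, was at 1.08 ± 0.504 and 0.445 ± 0.729 CPM with 4 libraries at 0 (-2.94, SE 0.99, adjusted p = 0.170 in edgeR, 0.000753 in DESeq2 and 0.0176 in voom). *Cdh9* was at 0.994 ± 0.726 and 0.897 ± 1.66 CPM with 2 libraries at 0 (-1.39, SE 0.66, adjusted p = 0.423 in edgeR, and 0.0454 without mouse 6). Both lay near the floor, and without the mouse block their log2 fold changes were -1.28 and -0.16.

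Among 11 other actin and intermediate filament genes tested, 2 were called higher and 0 lower (median, 0.17), and both encode filament proteins that assemble with vimentin. *Nes*, which encodes nestin, a filament protein of progenitors, reactive glia and endothelium, was at 1.55, 4.54 and 7.64 CPM in the lowest, the median and the highest control eye and at 6.82, 12.2 and 28.8 CPM in Best1-Nrf2 eyes, and it rose in 9 of 9 mice (log2 fold change 1.75, SE 0.35, adjusted p = 0.0130 in edgeR). *Synm*, which encodes synemin, was at 3.50, 5.44 and 6.68 CPM in control and at 6.09, 12.6 and 17.8 CPM in Best1-Nrf2 eyes, and it rose with 8 of 9 mice higher (1.10, SE 0.24, adjusted p = 0.0209). The groups of both overlapped at their edges. The call of *Synm* was lost without mouse 2, 3, 4, 5 or 7 (adjusted p = 0.0519 to 0.0670) and with the fibroblast and smooth muscle covariate (1.05, adjusted p = 0.0850), and *Nes* was called with any single mouse left out. *Actb*, the cytoplasmic actin, was at 1191 ± 384 and 920 ± 587 CPM (-0.48, SE 0.26, adjusted p = 0.491). With the level of rod and cone markers as a covariate, which runs with the groups, 41 of all genes were called and none of the 6 named here was among them, nor was *Nfe2l2* (1.86, adjusted p = 0.0966 in edgeR). In that fit the log2 fold changes were 0.78 for *Mmp2*, 1.13 for *Ccn2*, 1.42 for *Nes* and 1.04 for *Synm*, with SEs of 0.45 to 0.76, and -0.07 for *Fap* and -0.20 for *Bmp4*.

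**Figure D4:**
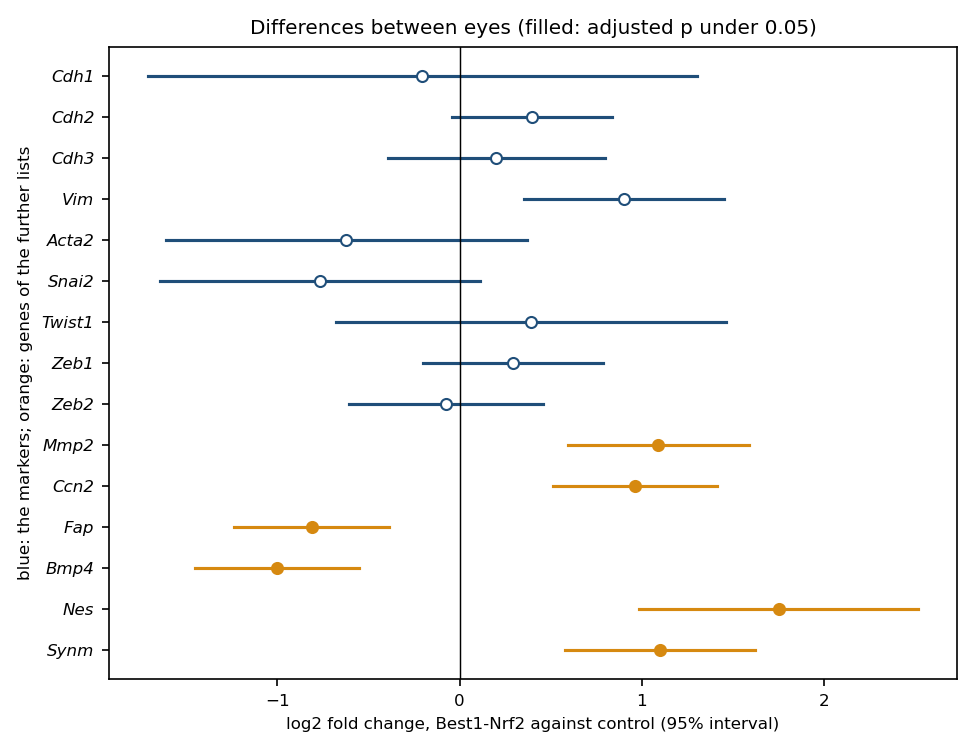
Log2 fold change of Best1-Nrf2 against control eyes (x axis; points with 95% intervals, 9 mice) for the 9 EMT markers tested (blue) and the 6 called genes of the related lists (orange). Filled points passed the adjusted threshold and open points did not. *Vim* (0.90) is the only marker whose interval does not reach 0, and *Nes* (1.75) is the highest of the called genes.

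Genes whose levels ran most like those of a marker over the 18 libraries were sought by the root mean square difference of centred log2 CPM, among 11808 genes with a average log2 CPM of 2 or more. For *Cdh1* they were *St14*, an epithelial membrane protease, at 0.32, and *Cpm* at 0.37, against a spread of 1.44 in *Cdh1* itself. For *Snai2* they were *Pdlim1* at 0.25 and *Perp*, a desmosome gene of stratified epithelia, at 0.28, against a spread of 1.13. For *Cdh3* they were *Thbs1*, a matricellular protein, at 0.21 and *Galnt10* at 0.28. For *Vim* they were *Ubqln2* at 0.29 and *Ldhb* at 0.30. For *Acta2* they were *Tagln*, a smooth muscle gene, at 0.44 and the pigment gene *Pmel* at 0.45, for *Zeb1* *Gm10762* at 0.31 and *Dzip3* at 0.32, for *Zeb2* *Prdm11* at 0.20 and *Zfp428* at 0.27, and for *Cdh2* *Rtl8a* and *Vstm2a* at 0.29 and 0.30. None of these neighbours was called between the eyes. They were chosen for their likeness to uncalled markers over the same libraries, so this is no separate result.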

How the data were processed

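RNA from the supernatants of 18 eyecups was analysed, 9 Best1-Nrf2 and 9 control, grouped by the treatment label and paired by the individual label. The labels give more pairs than the study's methods state for *rd1* mice at this age, and as many as the methods state for *rd1* and wild-type CD1 mice of this age together. All pairs were used as the labels give them, as *rd1*, and a mix of genotypes was not tested. Reads had been aligned by the authors with STAR (mm10, Ensembl transcripts) and counted with featureCounts, and in parallel ran Salmon (0.8.1 in the submitters' processing notes, which also name FastQC), tximport and DESeq2. As deposited, the values are expected counts for each Ensembl gene, whole numbers not scaled between libraries, and which counter gave them is not given in the sources used here. No molecular identifiers are described, so counting precision leaves amplification out. Libraries were sequenced in separate runs that the labels do not assign, so the run could not be a term. No column was left without a sample.

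Symbols were found for 47310 of 47729 IDs, and coordinates are from GENCODE M21 on GRCm38. Work was done in R 4.3.3. Filtering was by filterByExpr (18958 genes, with 99.87% of counts), scaling by TMM and testing with edgeR 4.0.16 (quasi-likelihood, mouse as a block, adjusted p under 0.05). Log2 CPM used a prior count of 2, and SEs were derived from the F statistic. The methods were tested on simulated data. The EMT markers, the further lists and the tests were chosen with earlier results of these data known, and the corneal list after its values were seen. All 10 markers are named, with the 3 tested genes of smallest p in each further list (1 of these genes is not reported here), *Nfe2l2*, and the 2 nearest genes of each marker whose log2 CPM averaged 2 or more. Genes of the marker lists named in the text, and *Krt12*, were chosen after their values were seen. Of the bases of the 10 markers, 0 to 3.31% lay in 31-base words shared with other annotated genes. Over 72 pairs of libraries of the same group, chi-square per degree of freedom was never under 44.5, so none was a duplicate. The labels make same-numbered eyes 1 animal. After group means were removed, the correlation between the eyes of a mouse had a median of -0.000949 (range, -0.373 to 0.644).

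Alternatives were no block, RLE and upper-quartile scaling, library totals, DESeq2 1.42.0, limma 3.58.1 voom with sample weights, no count filter, at least 10 counts in every library, a threshold of 0.1, a covariate for rod and cone markers, a covariate for fibroblast and smooth muscle markers, and leaving out each mouse. A covariate for the corneal markers and fits without 2 mice were added after the data were seen.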

Additional observations from a re-analysis of the deposited data

Results flagged for a closer look

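Over 34 groups of 9 values (log2 CPM, in each group, of the 10 EMT markers, *Nfe2l2* and the 6 called genes of the further lists), 4 had a lowest or highest library set apart from the other 8, where about 1 in 20 groups would be by chance alone. *Cdh2* was lowest in the control eye of mouse 8, at 3.06 on the log2 CPM scale (8.27 CPM), with the next at 3.82. In the same library *Nfe2l2* was the highest of the control eyes, at 7.06 (next, 6.60). This was the smallest library, with the highest sum of corneal and conjunctival markers (70300 CPM) and the lowest of RPE markers (11900 CPM). *Mmp2* was lowest among Best1-Nrf2 eyes in mouse 8, at 2.65 (next, 3.38). *Nes* was lowest among control eyes in mouse 5, at 0.68 (next, 1.84), on 39 counts. Without mouse 8, the log2 fold change of *Cdh2* was 0.43 and *Mmp2* was still called.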

How the results depend on the processing

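The count of called EMT markers was 0 and became 1, *Vim*, without the replicate block, in DESeq2, in limma voom and at a threshold of 0.1. It was 0 in the other 19 settings, each mouse left out included. The count of all genes called was 806, 1628 in DESeq2, 1426 in voom, 41 with the photoreceptor covariate, 742 without the replicate block and 540 to 1046 with a mouse left out. Without the replicate block *Zeb2* turned to 0.0035 on the log2 scale, and *Mmp2* and *Bmp4* lost their calls. The photoreceptor covariate, which runs with the groups, turned *Cdh3* (-0.73), *Twist1* (-0.43), *Zeb2* (0.94), *Ctnnb1* (-0.46), *Ctnna1* (-0.66), *Krt18* (0.33), *Tgif1* (-0.0616), *Smad7* (-0.62), *Prrx1* (0.36), *Foxc2* (-1.64) and *Cdh9* (1.19), and *Nfe2l2* (1.86) and the 6 called genes of the further lists lost their calls, with *Ccn2* at 1.13, *Nes* at 1.42, *Synm* at 1.04, *Mmp2* at 0.78, *Bmp4* at -0.20 and *Fap* at -0.07. There, 6 of 9 markers had an unadjusted p under 0.05, against 19.6% of all genes, and none was called: *Cdh1* (-3.24), *Cdh2* (1.06), *Vim* (1.66), *Snai2* (-2.24), *Zeb1* (1.16) and *Zeb2*. The fibroblast and smooth muscle covariate ended the calls of *Mmp2*, *Fap* and *Synm*, and no count filter that of *Fap*. *Cdh19* and *Cdh18* were called in DESeq2 and voom, *Tgif1* in voom and with the surface epithelium covariate, *Cdh19* without mouse 8 and without mice 6 and 8, and *Cdh9* without mouse 6 and without mice 6 and 8. Without mice 4 and 6, *Ccn2* (adjusted p = 0.0606 in edgeR) and *Synm* (0.0731) lost their calls, as did *Ccn2* without mice 6 and 8 (0.0598). *Cdh1* turned to 0.38 with the surface epithelium covariate, to 0.61 without mice 4 and 6, and to 0.21 without mice 6 and 8. With a mouse left out it ranged from -0.47 to 0.21, *Zeb2* from -0.23 to 0.0855, *Cdh3* from 0.0045 to 0.38, *Twist1* from 0.14 to 0.63 and *Acta2* from -0.87 to -0.33. The cause of these changes was not tested. Scaling by RLE, upper quartile or library totals turned none of the markers. *Twist1* and *Snai1* were limited by depth: *Twist1* was not tested at 10 counts in every library, and *Snai1* had a value only in DESeq2 (0.99) and without a count filter (0.93).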
